A study of Mus musculus with 32 samples.

Results

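The 35 genes described here code for the excitatory postsynaptic scaffold and for synaptic adhesion proteins, among them presynaptic neurexins and Nlgn2 of inhibitory synapses. They were taken as listed by name: 4 membrane-associated guanylate kinases (Dlg1 to Dlg4), 4 SAPAP proteins (Dlgap1 to Dlgap4), 6 SHANK and HOMER proteins, 12 adhesion proteins (Nlgn1, Nlgn2, Nlgn3, Nrxn2, Nrxn3, Lrrtm1, Lrrtm2, Lrrtm3, Lrrtm4, Lrrc4, Lrrc4c and Slitrk1) and 9 kinases and other signalling proteins (Camk2a, Camk2b, Kalrn, Iqsec1, Iqsec2, Sipa1l1, Cnksr2, Baiap2 and Begain). Each matched 1 of the 23958 rows of the count table, and all 35 were among the 12651 genes that passed the filter on low counts. RNA came from the infralimbic and prelimbic frontal cortex of 32 mice, each given the gut microbiota of one of 3 primate species. The groups were human (12 mice, batches A and B), squirrel monkey, Saimiri boliviensis (8 mice, batches C and D), and macaque, Macaca mulatta (12 mice, batches E and F). The labels name the inoculation as the treatment and give no mouse strain, genotype, sex or age, no uninoculated group, and no number of microbiota donors behind a batch. Each batch held mice of 1 donor species, as did each plate column. Human was in plate columns 1 and 2, squirrel monkey in 3 and macaque in 4 and 5. Donor species therefore cannot be told apart from batch or plate column. Libraries were made by TagSeq, which reads a tag near the 3′ end of polyadenylated RNA, so splice forms of a gene were not separated.

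At an excitatory synapse the guanylate kinase scaffolds hold glutamate receptors and their auxiliary subunits under the membrane. SAPAP proteins bind the guanylate kinase domain of these scaffolds and connect it to SHANK, which in turn binds HOMER and the actin cytoskeleton of the spine. Neuroligins, LRRTM, NGL (Lrrc4 and Lrrc4c) and SLITRK proteins reach across the cleft to presynaptic partners such as neurexins, netrin-G proteins and receptor tyrosine phosphatases. In frontal cortex these proteins are studied for their part in synapse strength and spine shape, and many of their genes are linked to neurodevelopmental conditions in humans.

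The start regions of 4 of the members that differed between the groups are shown. They range from 40.7% to 79.3% G or C. These 4 were picked for display from 8 members that passed in human against macaque, 3 higher and 5 lower. RefSeq windows from 250 bases before to 50 bases after a gene's start (most upstream start in the table, build GRCm38.p6, which is not the GRCm39 build of the counts) were found for 28 of the 35 members. Those of Dlgap2, Shank1, Shank2, Nlgn3, Nrxn2, Lrrtm2 and Camk2a are not shown. Capitals mark GC boxes, GGGCGG on either strand. The first gene was higher with human than with macaque microbiota, and the other three were lower.
Dlg4, chr11:70016953-70017252, + strand: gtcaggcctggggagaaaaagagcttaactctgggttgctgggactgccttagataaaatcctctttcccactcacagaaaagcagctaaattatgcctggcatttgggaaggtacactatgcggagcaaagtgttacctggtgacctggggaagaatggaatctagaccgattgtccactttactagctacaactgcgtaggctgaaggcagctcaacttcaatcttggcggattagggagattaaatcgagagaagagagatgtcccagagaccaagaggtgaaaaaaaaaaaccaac
Cnksr2, chrX:158043231-158043530, - strand: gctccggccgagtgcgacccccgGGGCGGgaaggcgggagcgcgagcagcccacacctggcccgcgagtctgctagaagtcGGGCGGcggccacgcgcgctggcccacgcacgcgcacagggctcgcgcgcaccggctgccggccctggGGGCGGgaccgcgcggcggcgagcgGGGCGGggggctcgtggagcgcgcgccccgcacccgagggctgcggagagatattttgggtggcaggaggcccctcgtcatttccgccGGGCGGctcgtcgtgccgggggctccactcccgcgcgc
Begain, chr12:109068193-109068492, - strand: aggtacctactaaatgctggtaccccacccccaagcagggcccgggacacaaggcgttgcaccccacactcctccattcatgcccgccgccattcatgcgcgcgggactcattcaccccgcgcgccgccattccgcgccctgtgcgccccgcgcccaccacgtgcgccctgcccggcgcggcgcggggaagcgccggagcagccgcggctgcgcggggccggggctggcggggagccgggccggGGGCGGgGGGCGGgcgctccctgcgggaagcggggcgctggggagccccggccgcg
Lrrtm1, chr6:77242227-77242526, + strand: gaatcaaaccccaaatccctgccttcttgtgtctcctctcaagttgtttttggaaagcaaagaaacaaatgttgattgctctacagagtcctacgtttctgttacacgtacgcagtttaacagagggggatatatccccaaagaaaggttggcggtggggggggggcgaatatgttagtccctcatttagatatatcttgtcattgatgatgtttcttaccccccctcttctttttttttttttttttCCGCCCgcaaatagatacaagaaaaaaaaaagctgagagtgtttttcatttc
The window of Dlg4 holds 0 GC boxes at 46.3% G or C, that of Cnksr2 holds 5 at 79.3%, that of Begain 2 at 78.0% and that of Lrrtm1 1 at 40.7%. RefSeq windows were listed for 3 starts of Dlg4, 2 of Cnksr2, 5 of Begain and 1 of Lrrtm1. The values hold for the most upstream start only. Of the 28 member windows, 14 (50%) hold at least 1 GC box, against 35.9% of 27025 windows. The cAMP response element TGACGTCA was in 0 of the 28 windows (1.85% of all windows), the E-box CACGTG in 2 (7.14%, against 7.24%) and the TATA box TATAAA in 2 (7.14%, against 14.2%), on either strand. A match describes letters in a window and not a bound site.

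Library totals were 1204598 to 2089308 counts with human, 1193113 to 1588716 with squirrel monkey and 1035036 to 1673882 with macaque microbiota. Levels are CPM, that is counts divided by the library total, after scaling that total by trimmed mean (TMM) factors, and put on a common scale. The summed marker levels in this paragraph are the exception, and use the plain library total without TMM factors. All 6 markers of cortical excitatory neurons had counts in every mouse, with a summed level of 2361 to 2950 CPM (human), 2219 to 2865 CPM (squirrel monkey) and 2155 to 3222 CPM (macaque). The 10 oligodendrocyte and myelin genes, which mark white matter, were also detected in every mouse and summed to 757 to 10235 CPM (human), 890 to 5391 CPM (squirrel monkey) and 679 to 3681 CPM (macaque). Their score, the mean log2 CPM after centring each gene over the 32 mice, was highest in human replicate 12 (2.85), human replicate 1 (2.09), squirrel monkey replicate 8 (1.83), human replicate 4 (1.80) and squirrel monkey replicate 1 (1.66). In human replicate 7 the striatal neuron markers stood apart, at a summed level of 421 CPM against a median of 147 CPM in that group. Replicate numbers follow the order of the records and only name a mouse.

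In human against macaque, 8 of the 35 members passed the threshold, 3 higher and 5 lower (edgeR quasi-likelihood test, adjusted p under 0.05 over 12651 genes). Of all genes tested 8.01% passed, 4.47% higher and 3.54% lower. The members were chosen with earlier results of these data known. A share above that of all genes, here or in the comparisons below, is therefore no test of the set. Dlg4, Iqsec1 and Dlg3 were higher with human microbiota. Dlgap2, Cnksr2, Begain, Lrrtm1 and Sipa1l1 were lower. The median log2 fold change over the 35 members was -0.07, against -0.001 over all genes, and 13 members had an unadjusted p under 0.05 (23.1% of all genes did). Log2 fold changes below are human minus macaque with their standard error (SE), unless another pair is named, and every adjusted p is from edgeR. In bulk tissue, fewer cells of a type and less RNA per cell cannot be told apart.

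**Figure D1:**
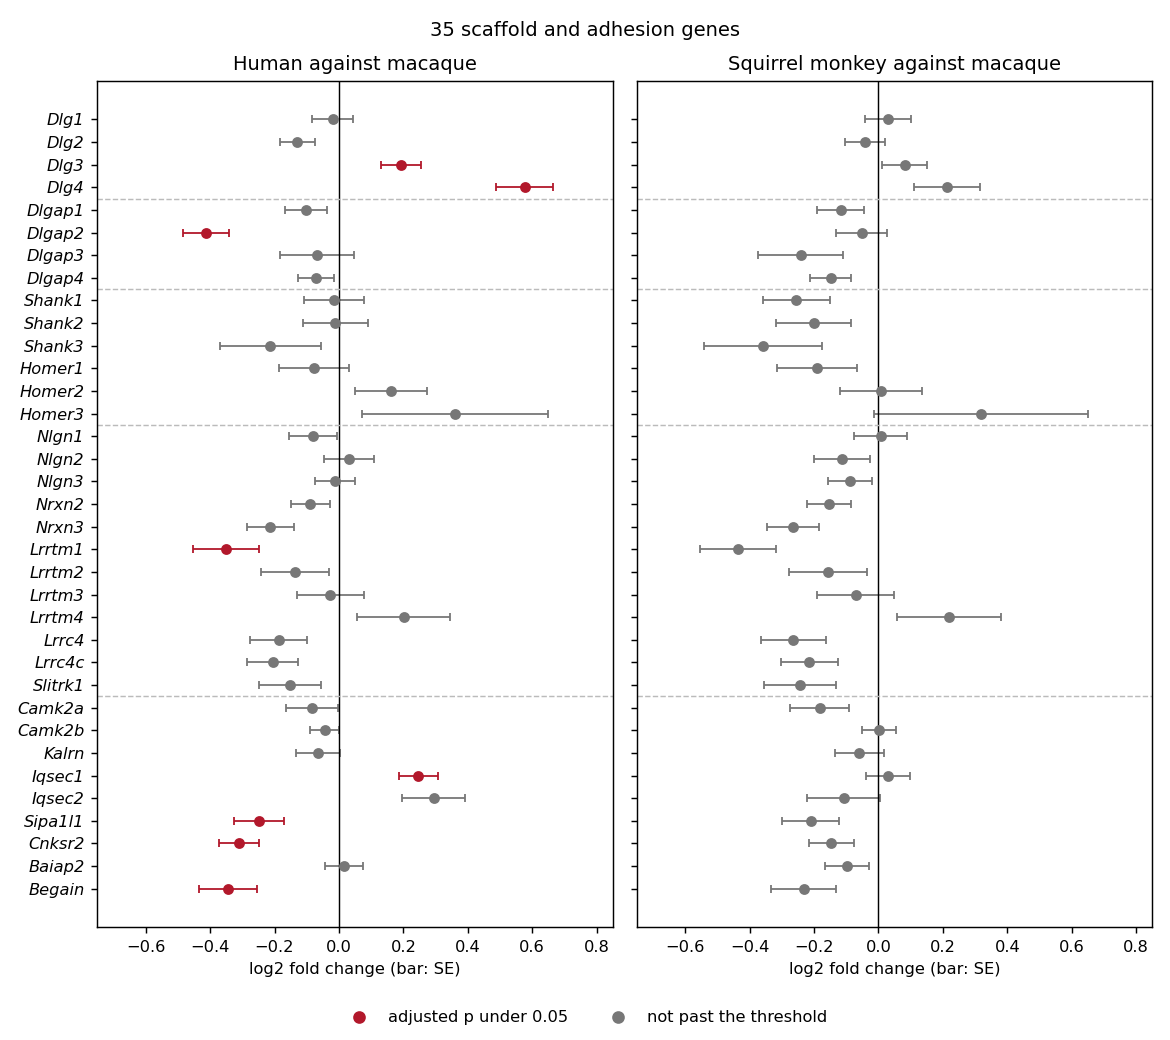
Log2 fold change (x axis) of the 35 genes (y axis, grouped by role between dashed lines) for human against macaque on the left and squirrel monkey against macaque on the right. Points are edgeR estimates, bars are SE and red points passed adjusted p under 0.05. There are 8 red points on the left, from -0.41 (Dlgap2) to 0.58 (Dlg4), and 0 on the right.

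Among the guanylate kinase scaffolds, 2 of 4 genes were higher with human microbiota and the other two did not pass the test. Dlg4 codes for PSD-95, the main scaffold of mature excitatory synapses. Dlg4 lay at 151 to 296 CPM (median 265) in the human-microbiota mice, at 168 to 221 CPM (median 188) in the squirrel monkey-microbiota mice and at 132 to 206 CPM (median 163) in the macaque-microbiota mice. In 9 of the 12 human-microbiota mice Dlg4 was above the highest macaque-microbiota mouse, and the ranges overlapped in the other three. The log2 fold change was 0.58 ± 0.09 (adjusted p = 3.3e-05). The batch means (± SD) were 259 ± 36.7 CPM in A and 242 ± 54.7 CPM in B, against 170.3 ± 23.8 CPM in E and 163 ± 25.0 CPM in F, so both human batches lay above both macaque batches. The call was kept when any 1 mouse was left out (0.55 to 0.63) and under all 17 other alternatives.

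Dlg3 codes for SAP102, a scaffold prominent in young synapses. Dlg3 lay at 156 to 239 CPM (median 209) in the human-microbiota mice, at 173 to 213 CPM (median 194) in the squirrel monkey-microbiota mice and at 157 to 219 CPM (median 179) in the macaque-microbiota mice. All but 1 of the 12 human-microbiota mice were above the macaque median, but the groups overlapped, and human replicate 12 was the lowest of all at 156 CPM. Dlg3 differed by 0.19 ± 0.06 on the log2 scale (adjusted p = 0.043). This call lay near the threshold: it was lost without human replicates 1, 4, 5, 6, 7, 9 and 10 or macaque replicates 2, 4, 5, 6, 7, 8 and 12, taken one at a time, with an adjusted p of up to 0.080, and was kept under 8 of the 17 other alternatives. Dlg1 and Dlg2, which code for SAP97 and PSD-93, had log2 fold changes of -0.02 ± 0.06 and -0.13 ± 0.05 (adjusted p = 0.90 and 0.14). For Dlg2, 11 of 12 human-microbiota mice were below the macaque median.

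**Figure D2:**
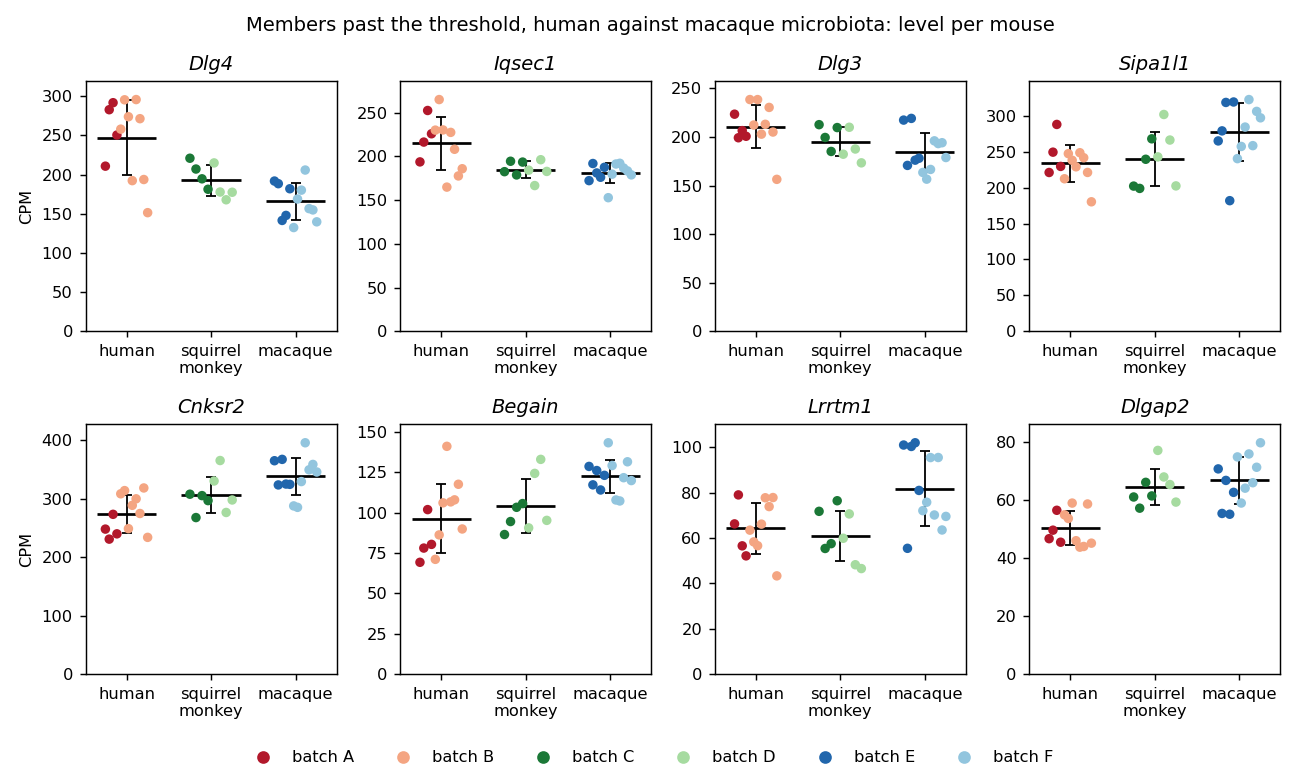
Level in CPM (y axis, from 0) of the 8 genes that passed in human against macaque, 1 point per mouse coloured by batch, by microbiota donor (x axis). Black lines are group means and bars are SD. Dlg4 reached 296 CPM with human and 206 CPM with macaque microbiota, and Dlgap2 stayed at or below 59.0 CPM with human microbiota.

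Of the 4 SAPAP genes, Dlgap2 alone passed the test, and it was lower with human microbiota. Dlgap2 lay at 43.8 to 59.0 CPM (median 48.2) in the human-microbiota mice, at 57.3 to 77.2 CPM (median 63.5) in the squirrel monkey-microbiota mice and at 55.2 to 79.8 CPM (median 66.5) in the macaque-microbiota mice. Every human-microbiota mouse was below the macaque median, and 9 of 12 were below the lowest macaque-microbiota mouse. Dlgap2 differed from macaque by -0.41 ± 0.07 on the log2 scale (adjusted p = 1.4e-04), and by -0.36 ± 0.08 against squirrel monkey (adjusted p = 0.045). The squirrel monkey call was lost without any one of 21 of the 32 mice and kept under 7 of the 17 other alternatives, with adjusted p = 0.30 on counts summed per batch. Batch means were 49.6 ± 4.92 CPM in A and 50.7 ± 6.59 CPM in B, 61.5 ± 3.64 CPM in C and 67.5 ± 7.40 CPM in D, and 62.2 ± 6.90 CPM in E and 70.2 ± 7.39 CPM in F. Both human batches thus lay below the other four. Against macaque the call was kept without any 1 mouse (-0.44 to -0.39), and lost without batch F (-0.32, adjusted p = 0.058). Dlgap1, Dlgap3 and Dlgap4 had log2 fold changes of -0.10 ± 0.07, -0.07 ± 0.11 and -0.07 ± 0.06, with adjusted p from 0.36 to 0.77.

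None of the 6 SHANK and HOMER genes passed in human against macaque, where their log2 fold changes ran from -0.21 (Shank3) to 0.36 (Homer3) with adjusted p from 0.41 to 0.97. SHANK proteins are the deep layer of the scaffold, and HOMER proteins tie them to metabotropic glutamate receptors. Shank1 had the smallest p of the class over the 3 groups (F-test adjusted p = 0.22). Shank1 lay at 482 to 1009 CPM (median 661) in the human-microbiota mice, at 484 to 786 CPM (median 576) in the squirrel monkey-microbiota mice and at 516 to 818 CPM (median 728) in the macaque-microbiota mice. Its values were low in the squirrel monkey group, where 7 of 8 mice were below the macaque median, and spread widely in the human group. The gene model 1700008O03Rik overlaps Shank1 on the opposite strand near a transcript end, and the last bases of Shank1 match it. Use of strand in the counts is not given, so the count of Shank1 is uncertain. Homer3 was the most variable member, at 2 to 18 counts per mouse and a biological coefficient of variation of 33.5%, against a median of 12.8% over the members (12.2% over all genes) and a lowest value of 6.59% for Dlg2. Its log2 fold change was 0.36 ± 0.29, and Homer3 overlaps Ddx49 on the opposite strand.

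Lrrtm1 passed among the 12 adhesion genes, and 10 of the 12 had negative estimates. Lrrtm1 codes for a postsynaptic leucine-rich repeat protein that binds neurexins. Lrrtm1 lay at 43.3 to 79.0 CPM (median 64.8) in the human-microbiota mice, at 46.6 to 76.4 CPM (median 58.7) in the squirrel monkey-microbiota mice and at 55.5 to 102 CPM (median 78.3) in the macaque-microbiota mice. In the human group 11 of 12 mice were below the macaque median, although only 2 were below its lowest mouse. The log2 fold change was -0.35 ± 0.10 (adjusted p = 0.028). This call was lost without human replicates 4 and 7 or macaque replicates 1, 3, 4 and 8, taken one at a time, with an adjusted p of up to 0.059, and without batch A, B, E or F. Batch means were 63.5 ± 11.9 CPM and 64.6 ± 11.9 CPM in the human batches and 87.9 ± 20.1 CPM and 77.4 ± 12.8 CPM in the macaque batches.

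Nrxn3, a presynaptic neurexin and thus the partner of several members, was close to the threshold against macaque. Nrxn3 lay at 363 to 537 CPM (median 430.2) in the human-microbiota mice, at 339.7 to 522 CPM (median 419) in the squirrel monkey-microbiota mice and at 411 to 607 CPM (median 524) in the macaque-microbiota mice. In the human group 11 of 12 mice, and in the squirrel monkey group all 8, lay below the macaque median. The log2 fold change was -0.21 ± 0.07 (adjusted p = 0.059) for human and -0.27 ± 0.08 (adjusted p = 0.11) for squirrel monkey. Lrrc4c and Lrrc4 code for NGL proteins that bind netrin-G on axons, and had log2 fold changes of -0.21 ± 0.08 (adjusted p = 0.097) and -0.19 ± 0.09 (adjusted p = 0.19). The neuroligins Nlgn1, Nlgn2 and Nlgn3, postsynaptic binders of neurexins, had -0.08 ± 0.07, 0.03 ± 0.08 and -0.01 ± 0.06. Nrxn2, Lrrtm2, Lrrtm3 and Slitrk1 lay between -0.15 and -0.03, and Lrrtm4, which binds heparan sulfate proteoglycans, at 0.20 ± 0.14. Nlgn1, Nlgn3, Nrxn2, Nrxn3, Lrrtm2 and Lrrtm4 overlap exons of other annotated genes, as do Dlg2, Dlgap1, Dlgap4, Shank3 and Homer2. Of these, Nlgn3 alone has an overlap on the same strand near a transcript end, where TagSeq reads fall. The overlaps of Dlg2 are on the same strand away from an end. The others are on the opposite strand, near an end only for Nrxn2, Lrrtm4 and Homer2. Use of strand in the counts is not given, so these counts may include reads of the other genes.

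Of the 9 kinase and signalling genes, 4 passed in human against macaque: Iqsec1 was higher, and Cnksr2, Begain and Sipa1l1 were lower. Iqsec1 and Iqsec2 code for exchange factors that switch on ARF GTPases and act on AMPA receptor traffic. Iqsec1 lay at 165 to 265 CPM (median 221) in the human-microbiota mice, at 167 to 196 CPM (median 184) in the squirrel monkey-microbiota mice and at 153 to 192 CPM (median 182) in the macaque-microbiota mice. In 9 of 12 human-microbiota mice Iqsec1 was above the highest macaque-microbiota mouse, and the other three, human replicates 8, 11 and 12 at 165, 178 and 186 CPM, were within the macaque range. Its log2 fold change was 0.25 ± 0.06 (adjusted p = 0.0075), kept without any 1 mouse (0.22 to 0.28) and lost with the library total as a covariate, without batch E, without batch F (0.24, adjusted p = 0.11) and on counts summed per batch. A gene model on the opposite strand, Gm44123, overlaps the end of Iqsec1.

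Iqsec2 lay at 48.4 to 102 CPM (median 74.2) in the human-microbiota mice, at 50.2 to 65.9 CPM (median 61.3) in the squirrel monkey-microbiota mice and at 51.1 to 76.2 CPM (median 67.5) in the macaque-microbiota mice. The human mice spread over both sides of the macaque range, with 5 above its highest mouse and 1 below its lowest. Iqsec2 differed by 0.29 ± 0.10 (log2) against macaque (adjusted p = 0.053) and by 0.40 ± 0.11 against squirrel monkey (adjusted p = 0.14). Iqsec2 passed the F-test over the 3 groups (adjusted p = 0.030), a call lost without human replicates 3, 4, 6, 9 and 10 or squirrel monkey replicate 7, taken one at a time. The same human replicates 8, 11 and 12, all of batch B, held Dlg4 at 192, 194 and 151 CPM, the lowest values of that group. Their Iqsec2 levels were 63.4, 64.8 and 48.4 CPM, and human replicate 5 had 60.9 CPM.

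Cnksr2 codes for a connector protein that binds PSD-95 and links it to Ras signalling. Cnksr2 lay at 231 to 319 CPM (median 274) in the human-microbiota mice, at 268 to 366 CPM (median 302) in the squirrel monkey-microbiota mice and at 286 to 396 CPM (median 338) in the macaque-microbiota mice. All 12 human-microbiota mice were below the macaque median and 7 were below its lowest mouse. The log2 fold change was -0.31 ± 0.06 (adjusted p = 0.0010), and the call was kept without any 1 mouse (-0.33 to -0.29) and under all 17 other alternatives. The means of the human batches, 248 ± 18.2 CPM in A and 286 ± 31.1 CPM in B, lay below the other four batches, and the macaque batches were at 341 ± 22.9 CPM and 336 ± 39.4 CPM.

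Begain binds the guanylate kinase domain of PSD-95. Begain lay at 69.2 to 141 CPM (median 95.8) in the human-microbiota mice, at 86.4 to 133 CPM (median 99.2) in the squirrel monkey-microbiota mice and at 107 to 143 CPM (median 122) in the macaque-microbiota mice. In 9 of 12 human-microbiota mice and 6 of 8 squirrel monkey-microbiota mice Begain was below the lowest macaque-microbiota mouse. For Begain the estimate was -0.34 ± 0.09 on the log2 scale (adjusted p = 0.012), kept without any 1 mouse (-0.40 to -0.31). Begain was at 82.3 ± 13.8 CPM in batch A and 103 ± 21.3 CPM in batch B, and without batch A the value was -0.24 (adjusted p = 0.14). The call was also lost without batch E, without batch F, with the library total as a covariate and without the 5 mice of highest myelin score. Sipa1l1 codes for SPAR, a Rap GTPase activator that shapes spines. Sipa1l1 lay at 180.3 to 288 CPM (median 234) in the human-microbiota mice, at 199 to 302 CPM (median 241) in the squirrel monkey-microbiota mice and at 182 to 323 CPM (median 282) in the macaque-microbiota mice. Its groups overlapped except for 1 human-microbiota mouse, and the log2 fold change was -0.25 ± 0.08 (adjusted p = 0.042), lost without human replicates 1, 4, 5, 7, 8, 11 and 12 or macaque replicates 1, 2, 3, 5, 8, 9, 11 and 12, taken one at a time (adjusted p up to 0.080), and kept under 7 of the 17 other alternatives.

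The remaining signalling genes did not pass. Camk2a and Camk2b, subunits of the kinase that drives synaptic potentiation, had log2 fold changes of -0.08 ± 0.08 and -0.04 ± 0.05. Kalrn, a Rac exchange factor of spines, had -0.06 ± 0.07, and Baiap2, an actin regulator known as IRSp53, had 0.02 ± 0.06. Their adjusted p-values were 0.58, 0.61, 0.62 and 0.91.

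In squirrel monkey against macaque 0 of the 35 members passed the edgeR test, where 0.640% of all genes did. At an unadjusted p under 0.05 there were 12 members (13.2% of all genes), of which 11 were lower. Without the 5 mice of highest myelin score there were 3 of 34 members, and over all genes 1273 against 1667 with every mouse. DESeq2 called 1 member, Lrrtm1, and limma voom with sample weights called 2, Lrrtm1 and Nrxn3. The median log2 fold change of the members was -0.12, against 0.0008 over all genes, and 26 of 35 estimates were negative. Lrrtm1 had -0.44 ± 0.12 (adjusted p = 0.067), with all 8 mice below the macaque median. Next in size was Shank3, -0.36 ± 0.18 (adjusted p = 0.40), at a level of 15.2 ± 3.56 CPM against 19.4 ± 4.59 CPM. This comparison and the human one use the same 12 macaque-microbiota mice, so their values are given side by side only. Dlg4 had 0.58 with human and 0.21 with squirrel monkey microbiota, Dlgap2 -0.41 and -0.05, Cnksr2 -0.31 and -0.15, and Begain -0.34 and -0.23. Iqsec1 had 0.25 and 0.03, and Iqsec2 0.29 and -0.11.

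Human against squirrel monkey tests that difference directly, and 1 of the 35 members passed, Dlgap2, which was lower. Of all genes 0.134% passed, 0.0158% higher and 0.119% lower. The other 34 had log2 fold changes from -0.16 (Cnksr2) to 0.40 (Iqsec2). Dlgap2 had adjusted p = 0.045 and was lost without any one of 21 of the 32 mice: human replicates 1, 2, 3, 4, 6, 8, 9 and 10, squirrel monkey replicates 2, 3, 4, 5, 6, 7 and 8 or macaque replicates 1, 3, 5, 8, 10 and 11. DESeq2 and limma voom each called 3 members, Dlg4 and Iqsec2 being the others. In edgeR Dlg4 had 0.36 ± 0.10 (adjusted p = 0.14), and Iqsec1 0.22 ± 0.07 (adjusted p = 0.19). All 6 SHANK and HOMER estimates were positive, from 0.04 to 0.24 (Shank1), with adjusted p from 0.43 upwards.

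Giving human and squirrel monkey equal weight, their mean was then set against macaque and gave 7 of 35 members, 1 higher and 6 lower, where 5.51% of all genes passed (2.70% higher and 2.81% lower). Dlg4 was higher (0.39 ± 0.08, adjusted p = 0.0027). Lrrtm1 (-0.39 ± 0.09, adjusted p = 0.0089) and Nrxn3 (-0.24 ± 0.06, adjusted p = 0.022) were lower among the adhesion genes. Cnksr2 (-0.23 ± 0.06, adjusted p = 0.012), Begain (-0.29 ± 0.08, adjusted p = 0.027) and Sipa1l1 (-0.23 ± 0.07, adjusted p = 0.046) were lower among the signalling genes. Dlgap2 was lower at -0.23 ± 0.06 (adjusted p = 0.024). Nrxn3 was lost without macaque replicate 9, Dlgap2 without macaque replicates 9 and 12, and Sipa1l1 without any one of 20 mice: human replicates 1, 2, 4, 5, 7, 8, 11 and 12, squirrel monkey replicates 1, 2, 3 and 8 or macaque replicates 1, 2, 3, 5, 8, 9, 11 and 12. On counts summed per batch Dlgap2 (adjusted p = 0.15), Sipa1l1 (0.069) and Begain (0.060) were lost and the other four kept. With the myelin score as a covariate Dlg4 alone remained of the 7.

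The F-test asked whether any of the 3 groups differed, and 8 of 35 members passed, where 6.15% of all genes did. They were Dlg4 (adjusted p = 1.2e-04), Dlgap2 (3.0e-04), Cnksr2 (0.0044), Iqsec1 (0.014), Lrrtm1 (0.021), Iqsec2 (0.030), Begain (0.033) and Nrxn3 (0.047). Nrxn3 was lost without any one of 22 mice (human replicates 1, 2, 4, 5, 7, 8, 10, 11 and 12, squirrel monkey replicates 1, 2, 4, 7 and 8 or macaque replicates 1, 2, 3, 5, 8, 9, 11 and 12). Begain was lost without human replicates 1, 2, 4, 5 and 6 or macaque replicates 1, 3, 6, 7 and 11, taken one at a time.

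Between batches of the same donor species 0 of the 35 members passed in A against B, 0 in C against D and 0 in E against F, by edgeR, DESeq2 and limma voom. Of all genes, 0.0237%, 0% and 0% passed in edgeR. These comparisons held 4 against 8, 4 against 4 and 5 against 7 mice, where human against macaque held 12 against 12. The SE of Dlg4 was 0.13, 0.16 and 0.13 in them, against 0.09 in human against macaque. Differences of a size called between donors could thus be missed, and 0 calls does not show that batches were alike. At an unadjusted p under 0.05 there were 4, 0 and 0 members (11.6%, 6.98% and 3.15% of all genes). The 4 in A against B were Begain (-0.33 ± 0.13), Cnksr2 (-0.20 ± 0.09), Kalrn (0.21 ± 0.10) and Lrrc4 (-0.26 ± 0.13), with adjusted p from 0.33 to 0.42. The means of both human batches lay on the same side of both macaque batches for 23 of 35 members, 6 higher and 17 lower, and for 49.0% of all genes. For squirrel monkey against macaque the count was also 23, 3 higher and 20 lower (43.3% of all genes), and for human against squirrel monkey 19 (34.2% of all genes).

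**Figure D3:**
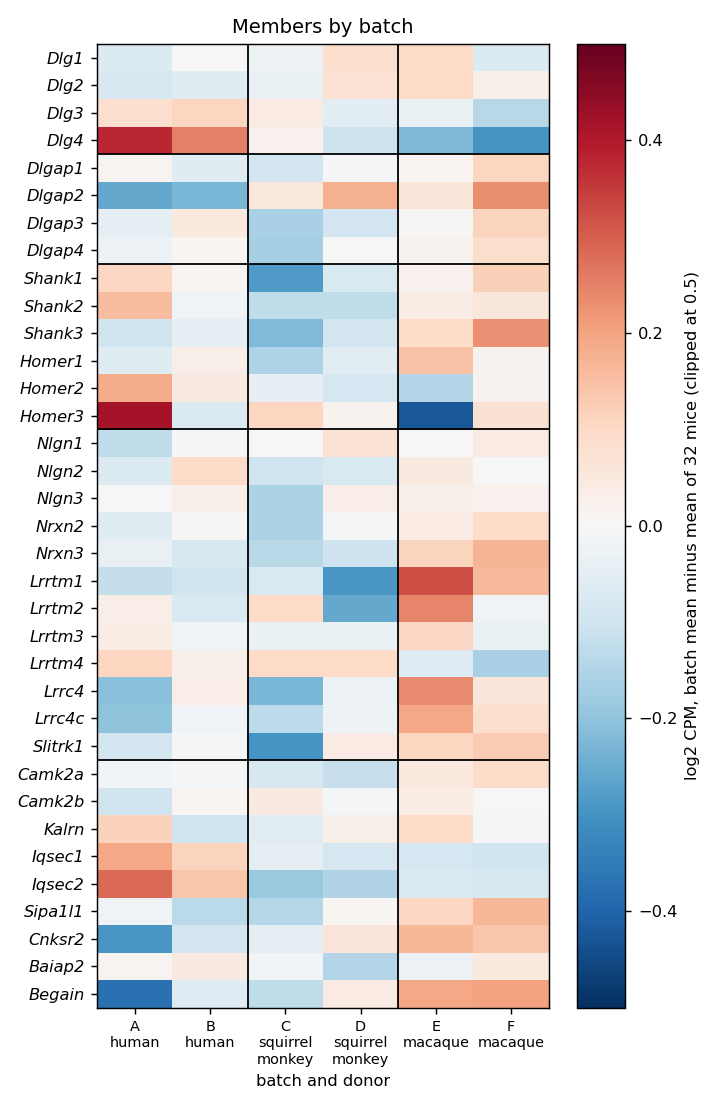
Mean log2 CPM of each member (rows, grouped by role) in each batch (columns, with its donor), after subtracting the mean of the 32 mice. Colour runs from blue (lower) to red (higher) and is clipped at 0.5. Dlg4 and Iqsec2 are red in both human batches, Dlgap2 and Begain are blue there, and Lrrtm1 is red in both macaque batches.

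Myelin gene levels differed between mice within each group, and the members were therefore related to the myelin score in a fit that also held the donor group, a test chosen after seeing the data. The coefficient is the log2 change per unit of score. Of the 35 members 5 passed, 1 rising and 4 falling with the score, where 6.03% of all genes did (4.20% rising and 1.83% falling). Homer3 rose with the score (0.43 ± 0.09, adjusted p = 0.0021). Nlgn2, the neuroligin of inhibitory synapses, fell (-0.13 ± 0.03, adjusted p = 0.0032), as did Dlgap1 (-0.09 ± 0.03, adjusted p = 0.024), Homer1 (-0.14 ± 0.04, adjusted p = 0.041) and Nrxn2 (-0.08 ± 0.02, adjusted p = 0.042). The median coefficient of the members was -0.08, against -0.004 over all genes. Without the 5 mice of highest score 0 of the 34 members still tested passed, and Homer3 was then under the filter on low counts. Homer3 was tested in 27 of the 32 fits without 1 mouse, and kept its call in those. It lost the call without batch B (edgeR adjusted p = 0.14). Dlgap1 was lost without human replicate 12, Nrxn2 without human replicates 1, 9, 10 and 12 or squirrel monkey replicates 1, 5, 7 and 8 and Homer1 without human replicates 1, 6, 9, 10 and 12, squirrel monkey replicates 1, 4, 5 and 8 or macaque replicate 6, each taken one at a time.

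**Figure D4:**
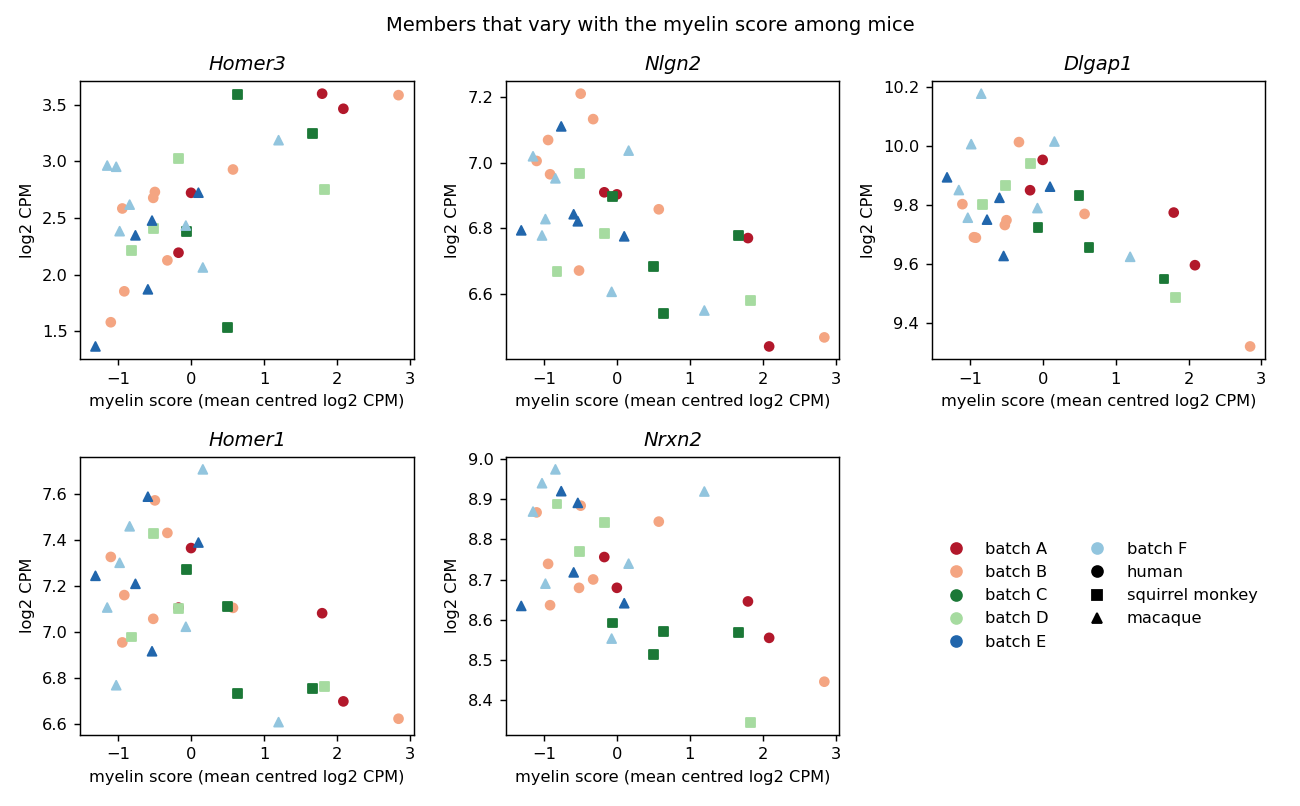
Log2 CPM (y axis) of the 5 members that varied with the myelin score, against that score (x axis, mean centred log2 CPM of 10 myelin genes), 1 point per mouse. Colour gives the batch and shape the donor group. Nlgn2, Dlgap1, Homer1 and Nrxn2 are low and Homer3 high in human replicate 12, at the far right with a score of 2.85.

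The myelin score averaged 0.23 ± 1.31 (SD) with human, 0.38 ± 0.97 with squirrel monkey and -0.49 ± 0.72 with macaque microbiota. Its mean was thus lowest with macaque microbiota, while single mice spread widely within each group. The cause of this difference was not tested, nor whether it underlies differences in the members. Set against macaque, the 10 myelin genes had a median log2 fold change of 1.26 for human and 1.03 for squirrel monkey. Between human and squirrel monkey this median was 0.22. Coefficients for the score were negative for 31 of the 35 members. Of the 10 myelin genes 3 passed in human against macaque, all higher. The F-test and both comparisons with the squirrel monkey group gave 0 of them. With the score as a covariate 7 members passed in human against macaque, 4 higher and 3 lower. Dlg4 had 0.64 (adjusted p = 3.9e-06), Dlgap2 -0.38 (adjusted p = 7.7e-04), Cnksr2 -0.26 (adjusted p = 0.0045) and Begain -0.28 (adjusted p = 0.039). Dlg3 and Iqsec1 also kept their calls, and Iqsec2 was called higher (0.35, adjusted p = 0.022). The calls of Sipa1l1 and Lrrtm1 were lost, and Lrrtm1 had -0.26 (adjusted p = 0.11). Without the 5 mice of highest score 6 members passed, 4 higher and 2 lower, of which 5 were among the 8 above. Dlg4 (0.66, adjusted p = 9.7e-07), Iqsec1, Dlg3, Dlgap2 and Cnksr2 kept their calls, and Iqsec2 was called higher. Lrrtm1 (-0.27, adjusted p = 0.11), Sipa1l1 (-0.20, adjusted p = 0.14) and Begain (-0.26, adjusted p = 0.070) lost theirs.

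The 3 further lists of genes, none of them members, cover other synaptic genes. Slitrk3, Igsf9b and Mdga1 are in both the adhesion list and the list of the inhibitory postsynapse, so the lists are not separate. Of 50 other genes of the excitatory postsynaptic scaffold and its signalling, all tested, 8 passed in human against macaque, 5 higher and 3 lower, and 0 in squirrel monkey against macaque. Wasf1, an actin regulator of spines, was lower (-0.28 ± 0.05, adjusted p = 4.8e-04) at 219.7 ± 14.8 CPM against 266 ± 26.7 CPM. Agap2, an ARF GTPase activator, was higher (0.45 ± 0.10, adjusted p = 0.0020), as were Akap5 (0.46 ± 0.11, adjusted p = 0.0047), which anchors protein kinase A to PSD-95, and Sipa1l2 (0.61 ± 0.14, adjusted p = 0.0062), a relative of Sipa1l1. The median log2 fold change of the list was -0.02.

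Of 40 other trans-synaptic adhesion genes 38 were tested, and 5 passed in human against macaque (3 higher and 2 lower) and 1 in squirrel monkey against macaque. The latter was Nptxr, the neuronal pentraxin receptor, which was lower (-0.41 ± 0.09, adjusted p = 0.013). In human against macaque Clstn3, a calsyntenin, was higher (0.60 ± 0.14, adjusted p = 0.0034), Adgrl3, a latrophilin, was lower (-0.38 ± 0.10, adjusted p = 0.012) and Efnb3, an ephrin, was higher (0.38 ± 0.11, adjusted p = 0.032). Of 9 genes of the inhibitory postsynapse 1 passed, Gabarapl1, which was higher with human microbiota (0.32 ± 0.06, adjusted p = 1.3e-04) at 477 ± 29.7 CPM against 381 ± 39.1 CPM. Gphn, which codes for gephyrin, the main scaffold of inhibitory synapses, had -0.15 (adjusted p = 0.21) and Lhfpl4 had -0.16 (adjusted p = 0.072). The background of these counts is the 8.01% and 0.640% of all genes given above.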

How the data were processed

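TagSeq libraries from frontal cortex of 32 mice were compared. The authors deposited 1 table of raw counts per Ensembl gene (23958 rows). The build is GRCm39, per the submitters' processing notes, with aligner, counter, annotation and use of strand not given in the sources used here. This table holds 3 further columns that match no sample used here and were not used. Rows without a symbol (76) held 0.031% of counts.

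Totals were 1035036 to 2089308 counts per mouse (median 1534710). Genes were filtered with filterByExpr (minimum count 10, minimum total 15), leaving 12651, and scaled by TMM (factors 0.955 to 1.04). The quasi-likelihood test of edgeR 4.0.16 (R 4.3.3) was fitted to all 32 mice with donor group as the term, and again with the 6 batches as the term. Benjamini-Hochberg adjustment ran over the 12651 genes, with calls at an adjusted p under 0.05. Common biological variation (edgeR) was 0.138 as a coefficient. Log2 CPM for scores used a prior count of 2. The fits were tested on simulated data. The number of pairs of mice with identical counts was 0.

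Alternatives were DESeq2 1.42.0, limma 3.58.1 voom, other scalings and filters, covariates, batches left out or summed, and each mouse left out. Overlaps and 3′ copies came from GENCODE release M21. Members and lists were chosen with earlier results of these data known. The named genes are members past the threshold in any comparison, the member of smallest F-test p in each role class, and up to 4 genes per further list by F-test p; a gene taken by this rule is not reported here. The labels do not say which mice shared a cage or litter. The donor fits to single mice took them as independent, although batches are nested in donor species. Their p-values thus measure the spread between these mice and do not take the batch as the unit.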

Additional observations from a re-analysis of the deposited data

How the results depend on the processing

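Of 32 fits without 1 mouse and 17 other alternatives, Dlg4 and Cnksr2 kept their calls in human against macaque under all. No estimate of a called member changed sign. Without 1 mouse the number of members called ranged from 5 to 9 in human against macaque (8 in the fit reported), 0 to 1 in squirrel monkey against macaque (0), 0 to 3 in human against squirrel monkey (1), 4 to 8 in the equal mean of both against macaque (7), 5 to 9 in the F-test (8), 1 to 11 with the myelin score (5), and 0 to 0 in each batch comparison. In human against macaque 4 members were called with the library total as covariate, 4 without batch A, 3 without E, 2 without F and 5 on counts summed per batch. In squirrel monkey against macaque DESeq2 called 1, limma voom 2 and summed counts 1. In human against squirrel monkey DESeq2 and limma voom each called 3, and 0 were called with DESeq2 size factors, library totals alone, no low-count filter, the library total as covariate, without batch A, B, D or E, and on summed counts; without the 5 mice of highest myelin score the 1 call was Dlg4 in place of Dlgap2. In the equal mean against macaque 1 was called with the myelin score as covariate, 4 without batch A, 2 without C, 2 without E, 0 without F, 4 on summed counts and 2 without the 5 mice of highest myelin score. The F-test called 5 with the myelin score as covariate, 4 with the library total as covariate, 3 without batch A, 5 without C, 5 without D, 2 without E, 2 without F, 5 on summed counts and 4 without those 5 mice. With the myelin score 3 were called with no low-count filter, 8 with DESeq2, 8 with limma voom, 3 without batch A, 0 without B, 3 without C, 2 without D, 9 without F and 0 without those 5 mice. Leaving out a batch also leaves fewer mice; other causes were not tested. With library totals alone human against macaque called 673 genes higher and 321 lower, against 565 and 448, and the members 4 and 4. The GC offsets and the fit without 5 mice were chosen after seeing the data. No paired analysis was possible because replicate numbers only follow record order. The least-read member, Homer3, had 2 to 18 counts per mouse, so depth limits what can be said of it.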

Other observations

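The fit with the myelin score also bears on genes outside the 35. Of 38 other trans-synaptic adhesion genes tested 9 passed, 8 of them falling with the score and 1 rising, and of 50 other excitatory postsynaptic genes 5 passed, 4 falling and 1 rising. Of 5 markers of upper cortical layers 3 fell, with a median coefficient of -0.19, and 0 of 5 markers of deep layers passed (median 0.11). Of 6 markers of cortical excitatory neurons 0 passed (median -0.02). Among 6 markers of inhibitory neurons 1 passed, which rose (median 0.05). Of 5 astrocyte markers 3 rose (median 0.15), and 0 of 9 genes of the inhibitory postsynapse passed, although Nlgn2 fell. All 10 myelin genes rose, since they form the score. These calls are at an adjusted p under 0.05 in edgeR, where 4.20% of all genes rose and 1.83% fell, and the relation was chosen for description after seeing the data.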
